A study of Mus musculus with 6 samples.

Results

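The protein kinase C genes Prkci, Prkcz, Prkca, Prkcb, Prkcd, Prkce, Prkch and Prkcq were followed by RNA sequencing in mouse colonic organoids in which the atypical members Prkci and Prkcz are floxed. The genes were taken by symbol, and all 8 were found among the 25067 rows of the expression values, 1 row each. Every organoid in both groups was C57BL/6, 8 weeks old at the source and of the genotype Prkcif/fPrkczf/f;Villin-CreERT2, so the vehicle organoids carry the floxed genes and the recombinase too, although the labels also describe them as wild type. The 3 vehicle libraries came from organoids kept for 3 days with ethanol, and the 3 libraries of the other group from organoids kept for 3 days with 4-OH-Tamoxifen (4-OHT), the ligand that activates CreERT2. The culture medium, Advanced DMEM/F12, was the same for both groups and held R-spondin 1, Noggin, EGF, WNT3A and B27. The Villin promoter drives the recombinase in intestinal epithelium. No library received 4-OHT without the floxed genes or without the recombinase, so loss of the atypical kinases, recombinase activity and 4-OHT itself cannot be told apart. Nothing says that the 3 libraries of a group came from separate animals or cultures, so the p-values measure the spread between these libraries, which may be technical.

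Protein kinases C are serine and threonine kinases that fall into 3 classes by the signals that switch them on. The conventional members (cPKC), Prkca and Prkcb here, need calcium and the membrane lipid diacylglycerol. The calcium-independent members (nPKC), Prkcd, Prkce, Prkch and Prkcq, need diacylglycerol and no calcium. The atypical members (aPKC), Prkci (PKCλ/ι) and Prkcz (PKCζ), respond to neither and are steered by protein partners such as PAR6 and p62, which they bind through a PB1 domain. In epithelia the atypical kinases are known for setting the apical side of the cell and its junctions. Whether the cPKC and nPKC genes are expressed at a different level after 4-OHT is the question that the selection of these genes addresses.

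The atypical class can be told from the others in the C1 domain, a small zinc-binding fold made of His and Cys residues. This domain binds diacylglycerol in cPKC and nPKC members. The spacing of these residues was found once in the translated sequence of each atypical gene and 2 times in each of the other 6 genes. The number of copies thus does not separate cPKC from nPKC. The coding stretches below are those of both atypical genes and of Prkcd, the nPKC gene with the highest counts, to show 1 copy beside 2. They run 5′ to 3′ along the coding strand and come from the GENCODE vM21 transcripts of GRCm38. Capitals mark the codons of the His and Cys residues that make up this spacing. All other codons, those of further His or Cys residues included, are in lower case.
Prkci: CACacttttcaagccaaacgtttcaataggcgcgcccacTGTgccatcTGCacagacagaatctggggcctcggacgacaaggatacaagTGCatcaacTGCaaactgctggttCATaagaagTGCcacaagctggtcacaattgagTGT
Prkcz: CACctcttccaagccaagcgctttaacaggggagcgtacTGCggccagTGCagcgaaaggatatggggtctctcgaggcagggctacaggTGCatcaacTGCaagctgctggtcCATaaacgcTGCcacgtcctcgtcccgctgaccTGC
Prkcd, first copy: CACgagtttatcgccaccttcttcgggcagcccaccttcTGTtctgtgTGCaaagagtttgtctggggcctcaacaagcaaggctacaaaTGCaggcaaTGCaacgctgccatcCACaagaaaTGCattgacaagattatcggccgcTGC
Prkcd, second copy: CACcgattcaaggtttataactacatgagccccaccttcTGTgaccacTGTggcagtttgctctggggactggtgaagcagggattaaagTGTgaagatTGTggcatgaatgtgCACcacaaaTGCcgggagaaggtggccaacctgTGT

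Prkci and Prkcz are close relatives, and their translated coding sequences (595 and 592 residues) were identical at 73.9% of aligned positions. Within the coding sequences they shared only short stretches, and the longest run of coding bases present in both genes was 22 bases long. The parts of the transcripts outside the coding sequence, which also collect reads, were not compared. The run is shown here in capitals with 30 bases on either side.
Prkci: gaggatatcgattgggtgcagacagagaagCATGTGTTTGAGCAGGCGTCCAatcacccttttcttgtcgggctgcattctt
Prkcz: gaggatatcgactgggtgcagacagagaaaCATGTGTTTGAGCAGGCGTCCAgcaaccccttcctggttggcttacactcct
The closest pair among the other members was Prkca and Prkcb, with 81.6% of aligned residues identical and a longest shared coding run of 38 bases. A different case was Prkcz2, a processed pseudogene whose transcript was 98.6% identical to the Prkcz coding sequence over the aligned bases, with 302 bases in a row the same. Of all windows of 75 bases in the Prkcz coding sequence, 43.7% occurred letter for letter in Prkcz2. The read length and the treatment of reads with several matches are not given in the sources used here, so the value of Prkcz is uncertain by the reads that fall in these windows. The row of Prkcz2 itself held a normalized count of 15.9, 14.2 and 16.9 in the vehicle libraries and 12.4, 16.6 and 14.8 in the 4-OHT libraries, 1.72% and 5.19% of the mean of Prkcz in each group. These values overlapped between the groups (log2 fold change -0.10 ± 0.36, SE, adjusted p = 0.84).

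The genes lie apart in the genome. In GRCm38, Prkci is at chr3:30995747-31052959 on the plus strand and Prkcz at chr4:155260129-155361361 on the minus strand. Prkca is at chr11:107933387-108343928 (minus), Prkcb at chr7:122288751-122634402 (plus), Prkcd at chr14:30595354-30626210 (minus), Prkce at chr17:86167785-86657919 (plus), Prkch at chr12:73584796-73778185 (plus) and Prkcq at chr2:11172108-11301222 (plus). Prkcz has 3 start sites in RefSeq, at base 155361428 for the full-length kinase (1776 coding bases), at 155345789 for a shorter coding form of 1227 bases that lacks the start of the protein, and at 155344749 for a transcript with no coding part. The expression values hold 1 sum per gene, so these forms were not separated. The submitters' processing notes name GRCm39, a later build, and no position here was carried over to it.

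The values are normalized counts, that is, reads per gene divided by 1 size factor per library. They are comparable between libraries for the same gene but not between genes, since long transcripts collect more reads. The libraries held between 15804709 and 26957612 reads on genes. A row was tested where its mean normalized count was at least 10, with limma-trend after 1 was added and the log2 taken, and p-values were adjusted by Benjamini-Hochberg over all 13210 tested rows. Log2 fold changes are 4-OHT minus vehicle, so a negative value is a lower level with 4-OHT.

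The organoids carried the genes of intestinal epithelium in all 6 libraries. The 7 epithelial markers summed to between 13639 and 13976 RPM (reads scaled to the library total) with vehicle and between 17493 and 18701 with 4-OHT. Most of these reads were of Krt8 and Krt18, so the sum does not show that each marker rose. Vil1, whose promoter drives the recombinase, also rose, from between 14622 and 14880 to between 17294 and 17490 normalized counts (log2 fold change 0.24 ± 0.040, SE, adjusted p = 7.4e-05). The 7 T cell markers measured of 8 listed summed to at most 0.715 RPM in any library. Several markers of other cells stood higher in 4-OHT replicates 2 and 3 than in the other libraries, and their part in the results was not tested. The 7 B and plasma cell markers summed to at most 0.932 RPM with vehicle and to 0.415, 10.7 and 4.20 in 4-OHT replicates 1, 2 and 3. The 10 small-intestinal Paneth and ileal genes summed to between 68.8 and 85.6 with vehicle and to 80.5, 120.2 and 119.9 with 4-OHT. Most of these reads were of Ang4 and Mmp7, and single genes of the list, named after their values were seen, differed far more than the sum. Defa24 had 1, 6 and 3 reads with vehicle and 4, 145 and 176 with 4-OHT, Defa22 had 0 with vehicle and 0, 88 and 28 with 4-OHT, and Fabp6 had 2, 3 and 2 with vehicle and 4, 120 and 34 with 4-OHT. Mmp7 did not rise, with 673, 961 and 469 reads with vehicle and 496, 520 and 428 with 4-OHT (not scaled to depth). The 6 smooth muscle markers reached 3.22 and 8.18 in 4-OHT replicates 2 and 3, and the 6 fibroblast markers 9.71 in replicate 3, against at most 0.696 and 1.08 with vehicle. The ranges of the other lists overlapped or were lower with 4-OHT. They were 1446 to 1590 and 1476 to 1603 RPM for 6 colonic epithelial markers, 9.30 to 11.8 and 7.89 to 10.4 for 7 macrophage and other leukocyte markers, and 3.09 to 3.45 and 1.89 to 2.95 for the 2 mast cell markers measured, vehicle first. They were 1.04 to 1.28 and 0.934 to 1.28 for 6 nerve and glia markers, with Prph at 0, and 0 to 0.442 and 0.259 to 0.715 for 4 endothelial markers. Most reads of the leukocyte list were of Cd68, with 199, 299 and 136 with vehicle and 127, 151 and 116 with 4-OHT. Other genes of that list, named after their values were seen, differed from the sum. Lyz2 had 0 reads with vehicle and 1, 6 and 25 with 4-OHT, and Adgre1 had 0 with vehicle and 0, 1 and 5 with 4-OHT. In bulk RNA of this kind, fewer cells of a type and less RNA per cell cannot be told apart.

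Both floxed genes were lower after 4-OHT, and by very different amounts. Prkcz held 880, 904 and 954 normalized counts in the vehicle libraries and 287, 265 and 290 in the 4-OHT libraries. Each 4-OHT library therefore kept between 29.1% and 31.8% of the vehicle mean, and the groups were far apart. On the log2 scale Prkcz fell by 1.70 ± 0.076 (SE, 95% interval -1.85 to -1.54, adjusted p = 3.2e-12, limma). Of the 13210 tested rows, 24 (0.182%) fell at least as much.

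Prkci held 3603, 3526 and 3430 normalized counts with vehicle and 2869, 3105 and 3089 with 4-OHT. The groups did not overlap, but each 4-OHT library kept between 81.5% and 88.2% of the vehicle mean. The log2 fold change was -0.22 ± 0.048 (SE, 95% interval -0.32 to -0.12, adjusted p = 8.1e-04, limma). A fall of this size or larger was found in 3276 tested rows (24.8%), so Prkci stood well inside the common range of changes while Prkcz stood at its edge. With 4-OHT replicates 2 and 3, which stood apart in the markers of other cells, both left out, the log2 fold change was -0.29 for Prkci (adjusted p = 0.0034) and -1.66 for Prkcz (adjusted p = 9.9e-07), with the lone 4-OHT library assumed to vary like the others.

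**Figure D1:**
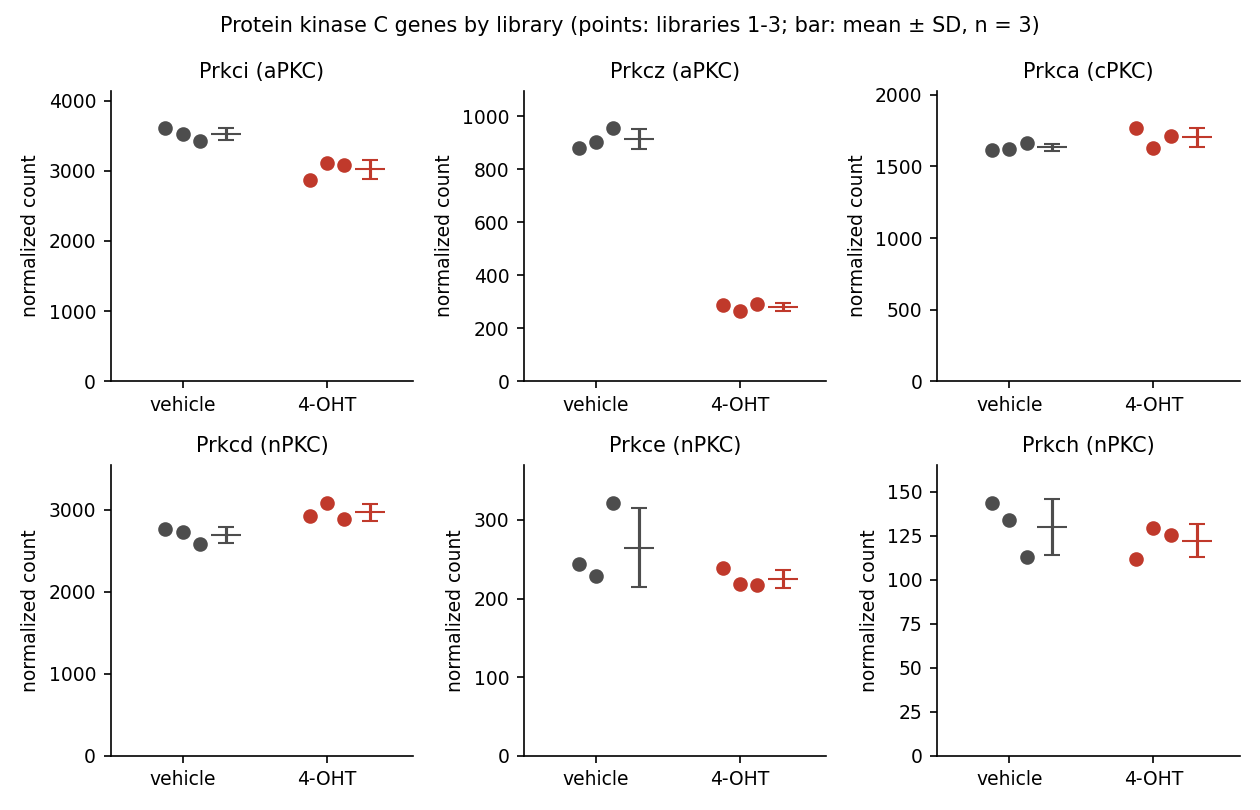
Normalized counts of the 6 tested protein kinase C genes in each library, with vehicle in grey and 4-OHT in red, and the mean ± SD of 3 libraries as a bar beside the points. Each panel has its own axis from 0, since counts are not comparable between genes. The Prkcz points fall from at least 880 to at most 290, the Prkci and Prkcd groups are separate but close, and those of Prkca, Prkce and Prkch overlap.

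A gene total of this kind counts reads from every exon, those outside a deleted part included. Which exons are floxed is not given in the sources used here, and where the reads fall along each gene was not analysed here. The totals of Prkci and Prkcz are thus levels of RNA from the locus and no measure of how many gene copies recombined. The balance of the atypical genes was compared as a ratio within each library, in which the size factor all but cancels (1 was added to each count). The log2 ratio of Prkcz to Prkci was -2.03, -1.96 and -1.84 in vehicle replicates 1, 2 and 3 and -3.32, -3.54 and -3.41 in 4-OHT replicates 1, 2 and 3. In linear terms a library held 3.86 ± 0.25 Prkci counts for each Prkcz count with vehicle and 10.8 ± 0.86 with 4-OHT (SD, n = 3 each). All 3 ratios with 4-OHT lay below all 3 with vehicle. The difference of -1.48 had a p of 0.10 in an exact permutation test (two-sided, 3 against 3 libraries), which is the smallest p that this number of libraries can give.

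Of the 8 genes, 6 passed the filter on low values and could be tested, and 3 of these changed at the adjusted threshold of 0.05. In all tested rows the share was 43.6%, and the members' count is near what that share would give, so nothing is read from it. By direction, 2 members were lower (21.0% of all tested rows were) and 1 was higher (22.7% of all tested rows were). The groups did not overlap in 3 of the 6 tested members, against 52.1% of all tested rows. The median log2 fold change was -0.15 over the 6 members and -0.0054 over all tested rows.

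Among the 4 tested genes outside the atypical class, Prkcd changed and by a small amount. Prkcd, an nPKC known for its part in apoptosis, held 2772, 2732 and 2588 normalized counts with vehicle and 2931, 3089 and 2896 with 4-OHT. Every 4-OHT library was above every vehicle library. The log2 fold change was 0.14 ± 0.048 (SE, 95% interval 0.039 to 0.24, adjusted p = 0.024, limma), and 64.7% of all tested rows changed at least as much in one direction or the other. This call was lost under 5 of 16 alternatives, among them quantile normalization (0.086, adjusted p = 0.15) and leaving out vehicle replicate 2 (0.15, adjusted p = 0.0505), vehicle replicate 3 (0.11, adjusted p = 0.094) or 4-OHT replicate 2 (0.11, adjusted p = 0.087).

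Prkca, the conventional kinase that many cell types express, held 1616, 1619 and 1661 normalized counts with vehicle and 1765, 1629 and 1711 with 4-OHT. The groups overlapped, since 4-OHT replicate 2 lay within the vehicle range. The log2 fold change was 0.060 with a 95% interval of -0.049 to 0.17 (adjusted p = 0.38, limma), so a rise above 1.12-fold lay outside this interval. Apoh and Gm11655 are annotated on the opposite strand over exons of Prkca, and whether the counting used strand is not given in the sources used here, but their own rows held at most 3 and 2 reads in a library.

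Prkce and Prkch, both nPKC, were measured at lower counts and with a wider spread. Prkce held 244, 228 and 322 normalized counts with vehicle and 239, 219 and 217 with 4-OHT. Vehicle replicate 3 stood above the other 5 libraries, and the groups overlapped. The log2 fold change was -0.22 with a 95% interval of -0.47 to 0.033 (adjusted p = 0.15, limma), and it was -0.072 when vehicle replicate 3 was left out. Prkch, which is known from epithelial tissues, held 144, 134 and 113 normalized counts with vehicle and 112, 130 and 125 with 4-OHT. Here too the groups overlapped, with a log2 fold change of -0.086 and a 95% interval of -0.38 to 0.21 (adjusted p = 0.66, limma). These intervals still hold a fall of Prkce to 0.72 and of Prkch to 0.766 of the vehicle level. They also hold a rise of Prkce to 1.02 and of Prkch to 1.16 of that level. Changes of these sizes could not be told from no change.

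The members best known from lymphocytes were at or near 0. Prkcb, which acts in B cell receptor signalling, had 2, 0 and 0 reads with vehicle and 0, 1 and 1 with 4-OHT. Prkcq, which acts at the synapse of T cells, had 0 reads in all 3 vehicle libraries and 1, 0 and 1 with 4-OHT. Each value was below 3 reads per library, the smallest number taken as detected, which corresponds to a normalized count between 2.13 and 3.63 and covers counting error only. No fold change is given for these genes. Prkcb thus stayed at the floor in 4-OHT replicate 2, where the B and plasma cell markers were highest.

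**Figure D2:**
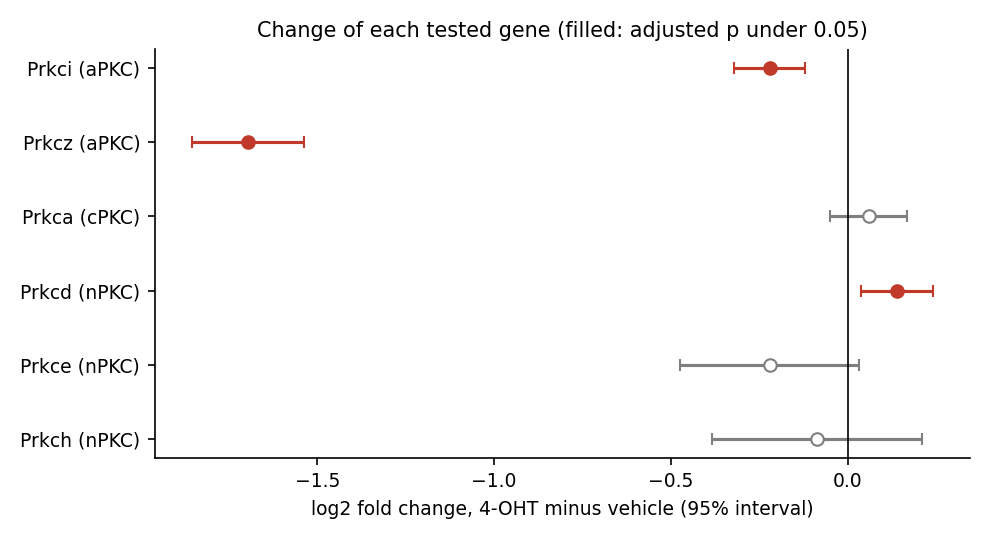
Log2 fold change of each tested protein kinase C gene, 4-OHT minus vehicle, with its 95% interval from limma. Filled points passed the adjusted threshold of 0.05, and only Prkcz lies beyond -1 on this axis, while the intervals of Prkca, Prkce and Prkch cross 0.

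To set the isoforms side by side, each normalized count was divided by the length of the gene's longest annotated transcript in kilobases. Per length, the vehicle organoids carried Prkcd at 946 ± 33.9, Prkci at 748 ± 18.5, Prkcz at 223 ± 9.27 and Prkca at 194 ± 3.00 normalized counts per kilobase (SD, n = 3). Prkce at 42.4 ± 8.01 and Prkch at 35.8 ± 4.38 followed, and they overlapped with each other. With 4-OHT the levels per kilobase were 1042 ± 36.1 for Prkcd, 642 ± 28.1 for Prkci, 202 ± 8.09 for Prkca and 68.8 ± 3.33 for Prkcz (SD, n = 3). Prkce at 36.0 ± 1.90 and Prkch at 33.6 ± 2.58 again overlapped, and the other neighbours in the order, down to Prkch, did not. Prkcz thus moved from above Prkca to below it, and it stayed above Prkce in every library.

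The order at the top depends on the length used. Per base of coding sequence, Prkci came first with 1972 ± 48.7 normalized counts per kilobase with vehicle, ahead of Prkcd at 1284 ± 46.0 and Prkca at 809 ± 12.5, and Prkcz was already below Prkca at 514 ± 21.3. With 4-OHT the same measure gave 1693 ± 74.0 for Prkci, 1415 ± 49.0 for Prkcd, 844 ± 33.7 for Prkca and 158 ± 7.65 for Prkcz. The longest Prkcz transcript is the shorter coding form, and those of several members carry long ends outside the coding part, so neither may be the length of the RNA present. Under both lengths Prkci and Prkcd were the leading isoforms in all 6 libraries, and the 4 genes Prkci, Prkcd, Prkca and Prkcz made up most of the family's RNA.

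As shares of the summed per-length level of the 8 genes, the atypical class took 44.1%, 44.2% and 44.8% in the vehicle libraries and 34.2%, 35.0% and 36.1% in the 4-OHT libraries by the longest transcript. The share of Prkcz went from 10.2% ± 0.60 to 3.40% ± 0.23 (SD, n = 3) and that of Prkci from 34.1% ± 0.26 to 31.7% ± 0.94. The share of Prkcd went from 43.2% ± 0.84 to 51.5% ± 0.98 and that of Prkca from between 8.64% and 9.19% to between 9.35% and 10.6%. Shares add to a whole, so a gene's share can rise with no more of its own RNA. The summed level itself was 2190 ± 37.4 normalized counts per kilobase with vehicle and 2025 ± 43.7 with 4-OHT. By coding length the atypical share was 52.2% ± 0.045 with vehicle and 43.3% ± 1.10 with 4-OHT, and after 4-OHT most of the atypical share was Prkci by either length. The order of levels was chosen as a description and was not tested.

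**Figure D3:**
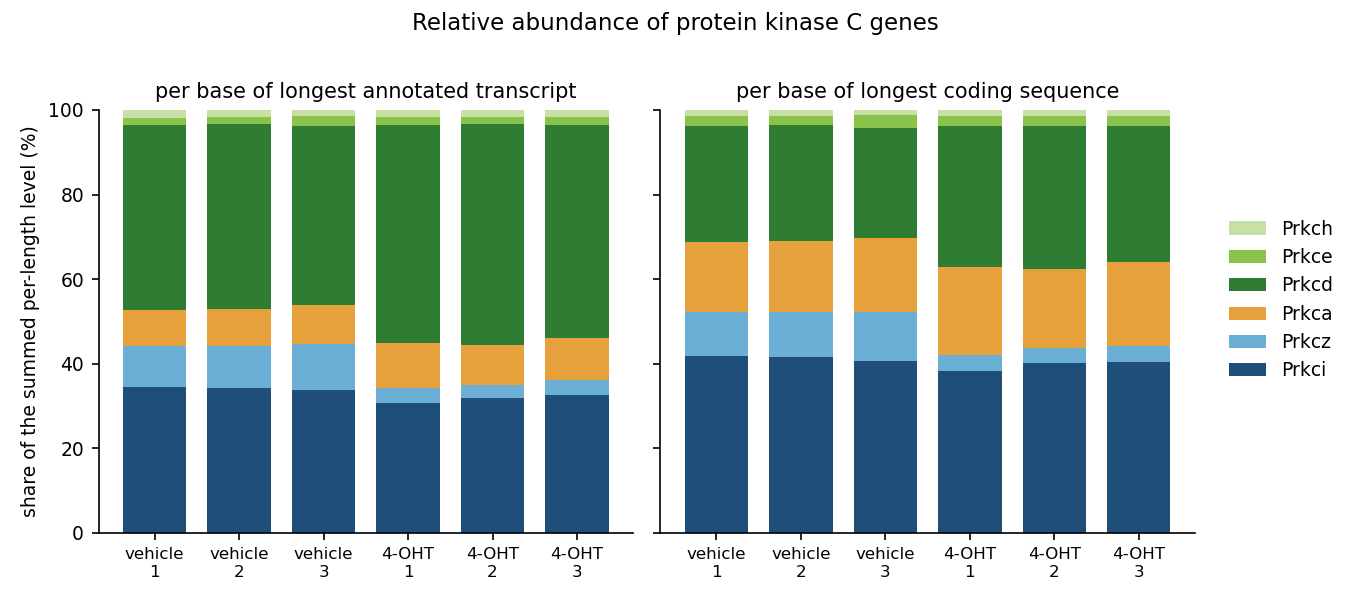
Share of the summed per-length level of the protein kinase C genes in each of the 6 libraries, in percent, with counts divided by the longest annotated transcript (left) or by the longest coding sequence (right). Prkcb and Prkcq are too low to be seen. The light blue band of Prkcz narrows from about 10% to below 4% with 4-OHT in both panels, while Prkci and Prkcd stay the widest bands.

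The tested genes whose profile over the 6 libraries was most like that of Prkcz were Gm45889, Stc2, Fut1, Urad and Xkr5, by the root mean square difference of log2 values after subtraction of each gene's vehicle mean (0.14 to 0.19). No tested row came within 0.1 of Prkcz. Stc2, a secreted glycoprotein, fell from a mean of 4133 to 1468 normalized counts. For Prkci the most alike were Txnrd1, Ncoa4, Kif21a, Pabpc1 and Hps1 (0.013 to 0.024), and 1175 tested rows came within 0.1.

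The genes around protein kinase C were followed in 7 lists with 67 genes, of which 51 were tested. Of these, 25 (49.0%) changed, 14 upward and 11 downward, beside 43.6% of all tested rows. By direction, 22.7% of all tested rows were higher and 21.0% were lower. The counts of each list below stand beside these same shares. The lists are short and no list was tested as a set, so nothing is read from its counts. The named genes are those past the threshold with a log2 fold change above 0.5 in size, and the most abundant tested gene per length in each list.

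Among the 7 relatives, which include the PKD and PKN kinases, 6 were tested, 1 rose and 2 fell, with a median log2 fold change of -0.13. Pkn3, a PKN kinase, fell from 537 ± 21.7 to 295 ± 27.4 normalized counts (SD, n = 3), which was -0.87 ± 0.088 on the log2 scale (SE, adjusted p = 1.5e-07). This was the largest change in size in this list, and it was smaller than that of Prkcz. Pkn2, the most abundant relative per length, stood at 1926 ± 98.1 and 1960 ± 77.7 (adjusted p = 0.72).

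Phospholipases C make the diacylglycerol and the calcium signal that cPKC and nPKC need. Of 12 genes, 9 were tested, 3 rose and 2 fell, with a median of -0.090. Plcg2, which acts downstream of receptor-associated tyrosine kinases, rose from 280 ± 17.8 to 423 ± 58.8 normalized counts (log2 fold change 0.58 ± 0.10, SE, adjusted p = 9.6e-05). Plch1 fell from 951 ± 45.2 to 636 ± 97.2 (-0.59 ± 0.088, adjusted p = 1.7e-05). Plcb3, the most abundant phospholipase C per length, was at 7649 ± 160 and 7187 ± 65.3 (log2 fold change -0.090, adjusted p = 0.085), and it was lower with quantile normalization (-0.18, adjusted p = 0.0011).

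Diacylglycerol kinases remove that lipid by turning it into phosphatidic acid. Of 9 genes, 7 were tested, 2 rose and 0 fell, with a median of 0.15. Dgkz, the most abundant per length, was at 3734 ± 164 and 3529 ± 56.3 normalized counts (log2 fold change -0.081, adjusted p = 0.17), and it was lower with quantile normalization (-0.13, adjusted p = 0.027). The other families that include diacylglycerol receptors with a C1 domain (RasGRPs, chimaerins and Unc13 proteins) were mostly low, with 4 of 10 genes tested. Of these, 1 rose and 1 fell (median -0.045), and the 1 that rose was Unc13d. Unc13a, a vesicle priming factor, fell from 334 ± 73.4 to 181 ± 36.8 (-0.88 ± 0.15, adjusted p = 1.0e-04), and Unc13d, a relative in granule release that is known to lack the C1 domain and was the most abundant per length, rose from 1586 ± 23.9 to 2011 ± 111 (0.34 ± 0.053, adjusted p = 2.9e-05).

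Newly made kinases of all 3 classes must be phosphorylated and folded before they can work. Of 12 genes of this priming and of its reversal, 11 were tested, 1 rose and 4 fell, with a median of -0.048. Hsp90ab1, the chaperone subunit most abundant per length, was at 69531 ± 1802 and 64502 ± 1443 normalized counts (-0.11 ± 0.045, adjusted p = 0.058). This value passed the threshold with TMM factors, quantile normalization, edgeR and DESeq2.

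Of the 7 PB1 and adaptor partners of the atypical kinases, 6 were tested, 2 rose and 1 fell, with a median of -0.074. The PAR6 genes, whose products bind both atypical kinases, did not move together. Pard6b rose from 1931 ± 96.5 to 2741 ± 139 normalized counts (0.50 ± 0.053, adjusted p = 2.5e-07), and Pard6a fell from 151 ± 19.0 to 99.2 ± 15.2 (-0.60 ± 0.15, adjusted p = 0.0035). Pard6g, added here to complete the set after its values were seen, had between 12.4 and 37.5 normalized counts and was at -0.66 (adjusted p = 0.10). Per length Pard6b was the higher of Pard6b and Pard6a, with 568 normalized counts per kilobase against 118 for Pard6a with vehicle and 806 against 77.9 with 4-OHT. Sqstm1, which encodes p62 and was the most abundant partner per length, was at 13964 ± 1338 and 14444 ± 1303 (adjusted p = 0.57).

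Anchors and substrates of cPKC and nPKC numbered 10, of which 8 were tested, 4 rose and 1 fell, with a median of 0.15. Marcksl1, an actin-binding substrate at the membrane, rose from 3887 ± 132 to 6522 ± 153 normalized counts (0.75 ± 0.044, adjusted p = 9.9e-11). Add3, an adducin that links actin to spectrin, fell from 1496 ± 75.1 to 1019 ± 52.2 (-0.55 ± 0.059, adjusted p = 3.2e-07). Rack1, the scaffold most abundant per length, was at 28732 ± 1312 and 28076 ± 619 (log2 fold change -0.033, adjusted p = 0.59), and it was lower with quantile normalization (-0.22, adjusted p = 1.9e-04).

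**Figure D4:**
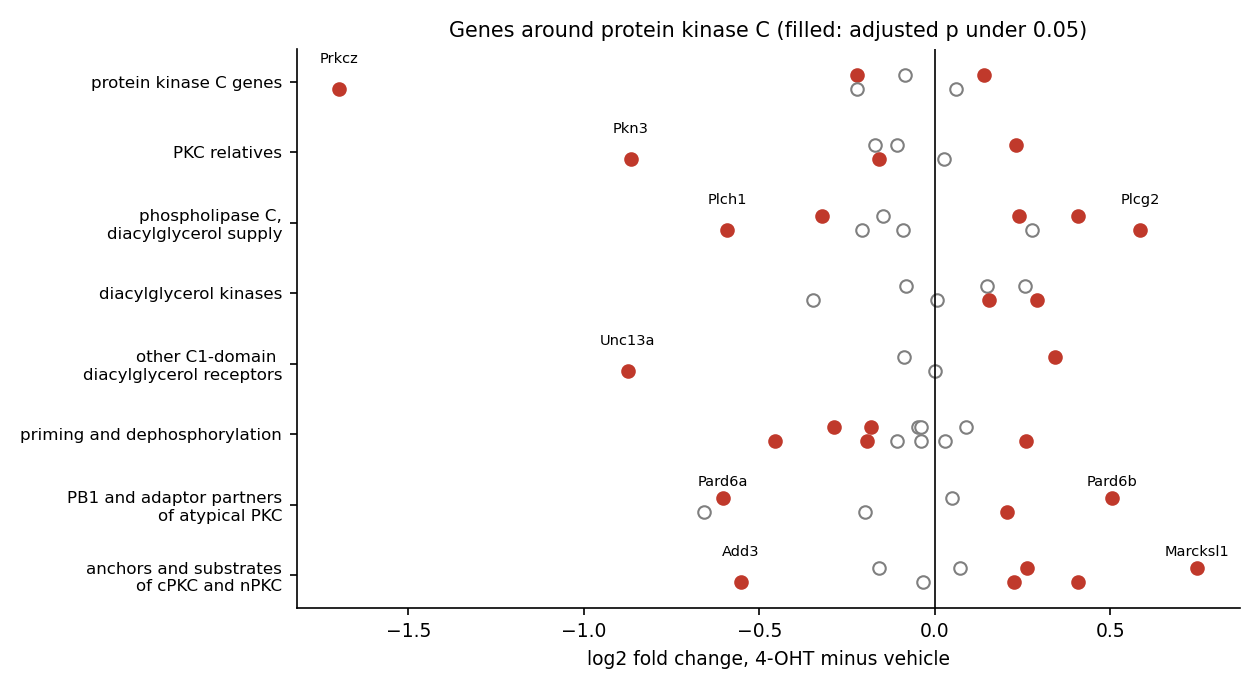
Log2 fold changes, 4-OHT minus vehicle, of the 6 tested protein kinase C genes and of the 51 tested genes in the 7 lists around them, 1 point per gene, with small vertical offsets for legibility. Filled points passed the adjusted threshold of 0.05. Prkcz lies at -1.70, farther from 0 than any gene of the lists, of which the lowest is Unc13a at -0.88 and the highest Marcksl1 at 0.75.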

How the data were processed

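RNA of 6 colonic organoid libraries was sequenced, 3 per group, after 3 days with vehicle or 4-OHT. The deposited values are a signal: normalized counts, made by the authors as reads per gene divided by 1 size factor per library. The submitters' processing notes name STAR, DESeq2 and the build GRCm39 (mm39), with no order or settings. All values (100%) came back as whole reads, within 0.1 reads, giving 15804709 to 26957612 reads per library. Libraries of a group differed by 3.49 to 6.44 times counting noise (chi-square per degree of freedom), so all 6 were kept.

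Of 25067 rows, the 13210 whose mean reached 10 normalized counts were compared. Values were log2-transformed after adding 1 and fitted with limma-trend (limma 3.58.1 under R 4.3.3), and Benjamini-Hochberg adjusted p-values under 0.05 were called. The ratio of Prkcz to Prkci was compared with an exact permutation test (scipy 1.17.1). Gene lengths and coding sequences came from GENCODE vM21 and start sites from RefSeq, both on GRCm38, and translated sequences were aligned with Biopython 1.88. Identical windows of 75 bases were a length chosen here. Alternatives used a pseudocount of 0.1 or 10, all rows, a mean of at least 50, TMM factors, quantile normalization, edgeR's quasi-likelihood test (4.0.16) and DESeq2 (1.42.0) on the whole reads, the replicate number as a block, each library left out, and 4-OHT replicate 1 alone. The comparison was tested on simulated data.

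The members and gene lists were chosen with earlier results of these data known. Named genes were all 8 members, up to 3 genes per list and direction past the threshold with a log2 fold change above 0.5 in size, the most abundant tested gene per length in each list, and the 5 genes most like Prkcz and Prkci. The same replicate numbers did not pair the libraries. Some items are not reported here.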

Additional observations from a re-analysis of the deposited data

How the results depend on the processing

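The 5765 rows past the threshold became 5780 with edgeR, 5208 with DESeq2 and 4939 to 5630 with 1 library left out, and 3569 with 4-OHT replicate 1 alone against vehicle, where fewer libraries enter. Prkcz (-1.72 to -1.66) and Prkci (-0.29 to -0.18) kept their direction and their call under all 16 alternatives. Prkca, Prkce and Prkch kept their direction and passed the threshold under none of them. Prkcd stayed above 0 but missed the threshold with quantile normalization (0.086), with 4-OHT replicate 1 alone (0.12) and under 3 of the 6 settings with a library left out (0.11 to 0.16 over these 6), and the cause was not tested. The log2 ratio of Prkcz to Prkci lay between -1.53 and -1.41 with a library left out. The atypical share was 51.9% and 52.2% with vehicle and 43.2% and 43.3% with 4-OHT by merged exons and by coding length, and with a library left out it lay between 44.2% and 44.5% with vehicle and between 34.6% and 35.5% with 4-OHT. The count of changed genes in the lists ran from 17 to 28 around 25. Of 240 alternative values for the 15 genes named from the lists, 224 kept direction and side of the threshold, 7 newly passed it and 9 changed sign. Those that newly passed were Hsp90ab1 with TMM factors, quantile normalization, edgeR and DESeq2, and with quantile normalization also Rack1 (-0.22, against -0.033), Plcb3 (-0.18, against -0.090) and Dgkz (-0.13, against -0.081). The sign changes were in genes that did not pass the threshold: Pkn2 (-0.019 with quantile normalization, -0.023 with 4-OHT replicate 1 alone, -0.0094 to 0.064 with a library left out), Sqstm1 (-0.071, -0.069 and -0.032 to 0.11 in the same order) and Rack1 (-0.056 to 0.0047 with a library left out).

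Libraries with the same replicate number did not deviate together (correlations of -0.0074, 0.030 and -0.020), so the numbers were not taken as pairs. With the replicate number as a block, 5637 rows passed the threshold, Prkcz was at -1.70, Prkci at -0.22, Prkcd at 0.14 and the log2 ratio at -1.48, and no call on a member changed.

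The depth limits the low members: Prkcb and Prkcq, at no more than 2 reads in a library, could not be compared, and for Prkce and Prkch a change within their intervals could not be seen.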

Other observations

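Further genes of the lists passed the threshold and are given here as values, chosen after their values were seen. Rictor, the subunit that defines the mTOR complex with a part in priming, was at a log2 fold change of -0.46 with 4-OHT (adjusted p = 1.7e-05, limma), and Mtor at -0.18 (adjusted p = 0.022). Phlpp1 and Phlpp2, phosphatases that remove priming phosphates, were at -0.19 (adjusted p = 0.047) and -0.29 (adjusted p = 0.013), and Cdc37, the cochaperone that brings kinases to Hsp90, at 0.26 (adjusted p = 7.8e-05). Of the substrates, Marcks was at 0.41 (adjusted p = 2.3e-04) and Add1 at 0.26 (adjusted p = 3.7e-05). Dgka, a diacylglycerol kinase, was at 0.29 (adjusted p = 6.4e-05), and Plcd3 at 0.41 (adjusted p = 2.4e-06).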
